A study of Mus musculus with 383 samples.

Results

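Mice that stayed immobile for long bouts when hung by the tail were compared with mice whose bouts were short, in 4 brain regions of one genetically mixed population. All were male F2 mice, bred from C57BL/6J and 129S1/SvImJ, which are inbred strains, and no drug or engineered genotype set the groups apart. The grouping trait was the mean duration of immobility bouts in the tail suspension test, and mice were ranked by it within the arrays of each region. The upper 0.333 of mice by rank, called high-immobility mice here, were set against the lower 0.333, called low-immobility mice. This gave 32 against 32 mice in cortex, 27 against 27 in hippocampus, 30 against 31 in hypothalamus and 35 against 35 in thalamus, which is 249 of the 383 arrays of the series. Over the 117 mice as a whole, 114 had the trait, of which 38 were high-immobility and 38 low-immobility mice. Because mice were ranked region by region, 13 of 114 mice fell in different groups in different regions, and 0 were high-immobility in one region and low-immobility in another. The mice of both groups went through the same sequence: behaviour tests from 7 weeks of age, electrode surgery at 10 weeks, sleep recordings after 6 h of sleep deprivation and 1 h of restraint, and death at 16 weeks, 6 to 7 h after lights on. The expression values therefore come from tissue taken weeks after the tail suspension test.

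In the tail suspension test a mouse hangs by its tail and alternates between struggling and hanging still. Immobility in it is used as a measure of stress coping, many antidepressant drugs shorten it, and inbred mouse strains differ widely in it. In an F2 population each animal carries its own mixture of the 2 parental genomes, so that both behaviour and gene expression vary from mouse to mouse.

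The trait was deposited on a transformed scale with values below 0, so the numbers are not seconds. On that scale, over all regions, high-immobility mice ran between 0.398 and 3.02 with a median of 0.938, and low-immobility mice between -2.10 and -0.373 with a median of -0.760. The nearest mice outside the groups stood at 0.395, just below the high-immobility mice, and at -0.362, just above the low-immobility mice, so the limits fall within a continuous distribution and not at a gap. The other measures of the same test belong to the same minutes of behaviour and are described without a test. High-immobility mice spent a median of 0.520 of the time struggling, with a range of 0.392 to 0.669, against 0.704 in low-immobility mice, with a range of 0.542 to 0.912. Long immobility bouts, meaning those at least 1 SD above the mean of all bouts, numbered a median of 1.05 on the deposited scale in high-immobility mice and -0.899 in low-immobility mice. The first of them came earlier in high-immobility mice, with a median latency of -0.807 on the deposited scale against 0.620 in low-immobility mice. The number of bouts of any length over 1 second had a median of 10.9 in high-immobility mice and 12.4 in low-immobility mice, and the groups overlapped almost completely there. High-immobility mice thus hung still for more of the time in longer bouts, while their median number of bouts was not higher.

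**Figure D1:**
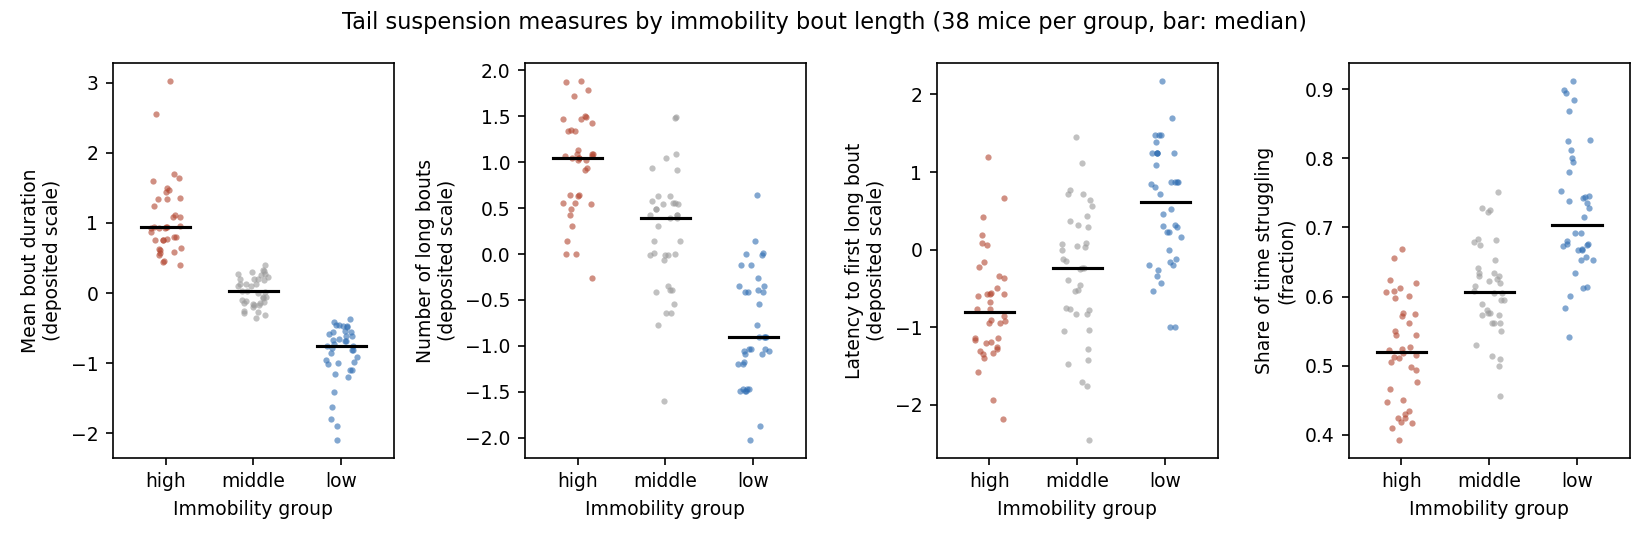
Each point is a mouse, grouped by immobility bout length over all mice into high, middle and low (38 each), with the median as a bar. The high and low groups do not overlap in bout duration, which defined them, and overlap in part in the number of long bouts, the latency to the first one and the share of time spent struggling.

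The arrays give deposited log2 values of 45037 probe sets, and a difference below is always high-immobility minus low-immobility mice on that log2 scale. Each region had been normalised apart. A mean outside 0 to 16 was found for 335 probe sets of hypothalamus and 769 of hippocampus, against 0 of thalamus and 0 of cortex, so levels were not compared between regions. Markers of the labelled tissue had a median rank among all probe sets of 89.02% in cortex and 95.2% in thalamus. In cortex the markers of striatum, which adjoins it, ranked at 95.0%. In hypothalamus its own markers ranked at 92.4%, but there and in hippocampus the ranks are limited by the unusual scale. In hippocampus its own markers ranked at 31.3% and cortex markers at 97.9%, so the labelled tissue could not be checked from these values. RNA integrity numbers had the same median, 7.7, in both groups of cortex, and medians 0.1 apart in hippocampus, hypothalamus and thalamus. Each mouse is one biological replicate per region. Since tissue was measured in bulk, fewer cells of a type and less RNA per cell cannot be told apart.

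In none of the 4 regions did a probe set differ between the groups at a Benjamini-Hochberg adjusted p under 0.05 in limma. The share called was 0% in cortex, hippocampus, hypothalamus and thalamus, of 45037 probe sets tested in each. Robust regression in limma, run as an alternative, called 19 probe sets in hypothalamus, 1 in hippocampus and 0 in the other regions. At an unadjusted p under 0.05 in limma, 3632 probe sets (8.06%) differed in hypothalamus, of which 1519 were higher (3.37% of those tested) and 2113 lower (4.69%) in high-immobility mice. In thalamus 2978 (6.61%) had such a p, with 1373 higher (3.05%) and 1605 lower (3.56%). In hippocampus they numbered 2347 (5.21%), with 1039 higher (2.31%) and 1308 lower (2.9%). Cortex had the fewest, 2285 (5.07%), with 1034 higher (2.3%) and 1251 lower (2.78%). The smallest adjusted p of a region was 0.116 in thalamus, followed by 0.148 in hypothalamus, 0.595 in hippocampus and 0.680 in cortex (limma). The typical 95% interval of a difference reached between 0.10 (thalamus) and 0.14 (hippocampus) to either side. Small differences of that order cannot be told from 0 at this number of arrays. The genes described next are, by region, the 6 with the smallest p higher and the 6 with the smallest p lower in high-immobility mice. None passed the adjusted threshold, and the ranges of the groups overlapped for all 48, so their values are a description of each comparison's smallest p-values.

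In cortex, Wwc2, a member of the KIBRA family of Hippo pathway regulators, had the smallest p, on the lower side. It ran between 9.00 and 9.31 with a median of 9.20 in high-immobility mice, against 9.14 to 9.46 with a median of 9.27 in low-immobility mice. The difference was -0.09 (95% interval -0.14 to -0.05, n = 32 each, adjusted p = 0.680 in limma). Ifi202b, an interferon-inducible gene of the p200 family, had a median of 3.87 in high-immobility mice and 4.11 in low-immobility mice, a difference of -0.25 (95% interval -0.37 to -0.13). Fcgr1, the high-affinity receptor for immunoglobulin G on macrophages and microglia, had a median of 5.87 in high-immobility mice and 6.15 in low-immobility mice, a difference of -0.24 (95% interval -0.36 to -0.12). The difference of Fcgr1 was -0.12 in hippocampus, -0.02 in hypothalamus and -0.01 in thalamus. Nek2, a centrosomal kinase of dividing cells, differed by -0.29 in cortex and by 0.23 in hippocampus, 0.11 in hypothalamus and 0.09 in thalamus. Hspbap1, whose product binds a small heat shock protein, differed by -0.26, and 4933432K03Rik by -0.18. Of the 3 other Hspbap1 probe sets in cortex, 0 lay in the same direction.

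Among the genes higher in cortex, Srpk2, a kinase of splicing factors, had the smallest p. It ran between 5.62 and 6.62 with a median of 6.22 in high-immobility mice, against 5.27 to 6.29 with a median of 5.94 in low-immobility mice, a difference of 0.23 (95% interval 0.11 to 0.35). Fzd4, a receptor for Wnt ligands and norrin that is needed for blood vessels of the retina and brain, differed by 0.20, and by 0.12 in thalamus. Lama3, a laminin chain of basement membranes, differed by 0.28, but its other probe set went the opposite way at an unadjusted p under 0.05. Piwil2, a germline Argonaute protein, differed by 0.19 in cortex, and elsewhere by 0.35 in hippocampus, 0.19 in hypothalamus and 0.01 in thalamus. Cnpy1 and 4930570E03Rik completed the list with 0.19 and 0.17, but 0 of the 2 other Cnpy1 probe sets lay in the same direction. The medians of Ifi202b, 4933432K03Rik, Fzd4, Piwil2, Cnpy1 and 4930570E03Rik lay between 3.44 and 4.11 in both groups. These values lie near the bottom of the cortex scale, where the lowest probe set mean was 2.96. The 12 genes had 23 further probe sets, of which 12 lay in the same direction as the named one and 1 had an unadjusted p under 0.05.

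In hippocampus, the smallest p of a gene with a symbol was that of Mbtd1, a reader of methylated histones in a histone acetyltransferase complex. It ran between 5.91 and 6.82 with a median of 6.44 in high-immobility mice, against 6.35 to 7.16 with a median of 6.68 in low-immobility mice. The difference was -0.24 (95% interval -0.34 to -0.13, n = 27 each, adjusted p = 0.635 in limma). Ints12, a subunit of the Integrator complex that processes RNA polymerase transcripts, differed by -0.20 in hippocampus, -0.13 in cortex, -0.09 in hypothalamus and -0.02 in thalamus. Whrn, a scaffold protein best known from hair cells of the inner ear, differed by -0.40 here, against 0.12 in hypothalamus and values within 0.04 of 0 in the other regions. Dleu2, a long noncoding RNA, Marchf10, a ubiquitin ligase, and Fam118b differed by -0.21, -0.33 and -0.10.

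The largest named difference of any region was that of Dlk1 in hippocampus, an imprinted membrane protein related to Notch ligands. Dlk1 ran between 3.85 and 6.39 with a median of 5.28 in high-immobility mice, against 2.76 to 5.84 with a median of 4.73 in low-immobility mice, a difference of 0.65 (95% interval 0.34 to 0.97). Its second probe set lay in the same direction at an unadjusted p under 0.05. The difference was -0.06 in cortex, 0.03 in hypothalamus and 0.05 in thalamus. Dcn, a proteoglycan of the meninges, also differed in hippocampus at an unadjusted p under 0.05. Its median was 16.37 in high-immobility mice and 16.06 in low-immobility mice, a difference of 0.58 (95% interval 0.26 to 0.89). It was the 1 of 7 markers of meninges and mural cells at an unadjusted p under 0.05 there, and the list's median difference was 0.05. The part of meningeal tissue in the Dlk1 difference was not tested. Gpr27, an orphan G protein-coupled receptor of brain, had a median of 5.85 in high-immobility mice and 5.61 in low-immobility mice, a difference of 0.28, against values within 0.04 of 0 in the other regions. Muc20, Hdhd2, Ccdc182 and Nxpe4 were the remaining genes on the higher side, at 0.39, 0.36, 0.28 and 0.20. The medians in high- and low-immobility mice were 0.97 and 0.49 for Muc20 and 1.74 and 2.16 for Whrn. How near the floor such values lie cannot be read from the unusual scale of hippocampus. The 12 genes had 15 further probe sets, 11 in the same direction and 2 at an unadjusted p under 0.05. Muc20, Marchf10 and Fam118b each had 1 other probe set, which lay on the opposite side.

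In hypothalamus, the genes with the smallest p were lower in high-immobility mice. Wrnip1, a helicase-interacting ATPase at stalled replication forks, ran between 10.75 and 11.31 with a median of 11.11 in high-immobility mice, against 11.07 to 11.56 with a median of 11.24 in low-immobility mice. The difference was -0.14 (95% interval -0.19 to -0.08, n = 30 and 31, adjusted p = 0.148 in limma). Rnaseh2c, a subunit of the enzyme that removes ribonucleotides from DNA, ran between 10.56 and 11.35 with a median of 10.89 in high-immobility mice, against 10.85 to 11.54 with a median of 11.10 in low-immobility mice. Its difference was -0.20 (95% interval -0.28 to -0.12). It was -0.05 in cortex, -0.03 in hippocampus and -0.06 in thalamus, where the unadjusted p was 0.0120. Of its 2 other probe sets in hypothalamus, 1 lay in the same direction. Also, 1 of the 2 had an unadjusted p of 0.00151 (limma), and the direction of that probe set is not reported here.

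Ciz1, a nuclear matrix protein of DNA replication, differed by -0.13 in hypothalamus, -0.09 in hippocampus, -0.04 in cortex and -0.02 in thalamus. Rexo4, an exonuclease, and Zfp410, a zinc finger transcription factor that activates the chromatin remodeller gene Chd4, differed by -0.11 and -0.13, and their other probe sets lay in the same direction. Trir, a ribonuclease that interacts with telomerase RNA, differed by -0.09 in hypothalamus but by 0.03 in cortex, 0.02 in hippocampus and 0.04 in thalamus. On the higher side, Akap11, an anchoring protein for protein kinase A, ran between 11.26 and 11.50 with a median of 11.39 in high-immobility mice, against 11.17 to 11.48 with a median of 11.32 in low-immobility mice. The difference was 0.08 (95% interval 0.04 to 0.11). B4galt2, a galactosyltransferase of protein glycosylation, differed by 0.24 in hypothalamus and by values between -0.06 and -0.01 in the other regions. Epm2aip1, whose product binds laforin, differed by 0.28, Map3k2, a kinase of the mitogen-activated cascade, by 0.21, Marcks, a protein kinase C substrate at the membrane, by 0.08, and Rflna by 0.28. The 12 genes had 19 further probe sets, 13 in the same direction and 4 at an unadjusted p under 0.05. Wrnip1 and B4galt2 each had 1 other probe set, which lay on the opposite side.

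In thalamus, Nsmf, a messenger that carries signals of NMDA receptors from synapse to nucleus, had the smallest p of any region. It ran between 5.92 and 6.71 with a median of 6.36 in high-immobility mice, against 6.29 to 7.15 with a median of 6.56 in low-immobility mice. The difference was -0.26 (95% interval -0.37 to -0.16, n = 35 each, adjusted p = 0.116 in limma). It was 0.06 in cortex, -0.05 in hippocampus and -0.00 in hypothalamus, and of 3 further Nsmf probe sets 2 lay in the same direction in thalamus and 0 had an unadjusted p under 0.05. Cyp2c54, a cytochrome P450, ran between 3.795 and 4.76 with a median of 4.29 in high-immobility mice, against 4.02 to 5.23 with a median of 4.58 in low-immobility mice, a difference of -0.29 (95% interval -0.41 to -0.17). Such values, and the medians of Bace2 at 4.65 and 4.43, lie near the bottom of the deposited scale.

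Zfp800, a zinc finger protein, differed by -0.21 in thalamus, and 5 of its 6 other probe sets lay in the same direction. Baz1b, a chromatin remodeller of the Williams syndrome region in humans, differed by -0.25, with 1 of 4 other probe sets in that direction. Kirrel3, a synaptic adhesion molecule, differed by -0.23 in thalamus and -0.18 in hypothalamus, and Tex15, a germline gene, by -0.31. On the higher side, Arcn1, the delta subunit of the COPI vesicle coat, ran between 10.74 and 11.04 with a median of 10.84 in high-immobility mice, against 10.58 to 10.92 with a median of 10.77 in low-immobility mice, a difference of 0.07 (95% interval 0.04 to 0.11). Btbd9, linked in humans to restless legs syndrome, differed by 0.15 in thalamus, 0.04 in cortex, -0.03 in hippocampus and -0.02 in hypothalamus. Bace2, a protease related to beta-secretase, differed by 0.22, Gpr101, an orphan receptor, by 0.20, 9630050P21Rik by 0.18 and Dedd, a death effector domain protein, by 0.12. The 12 genes had 25 further probe sets, 15 in the same direction and 2 at an unadjusted p under 0.05.

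Markers of the habenula, a nucleus that adjoins the thalamus, had a mean standardised level of -0.18 ± 0.72 in high-immobility mice in thalamus and 0.07 ± 0.57 in low-immobility mice (SD, n = 35 each). With that level as a term, the difference of Nsmf was -0.28, and 0 probe sets were called (limma).

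**Figure D2:**
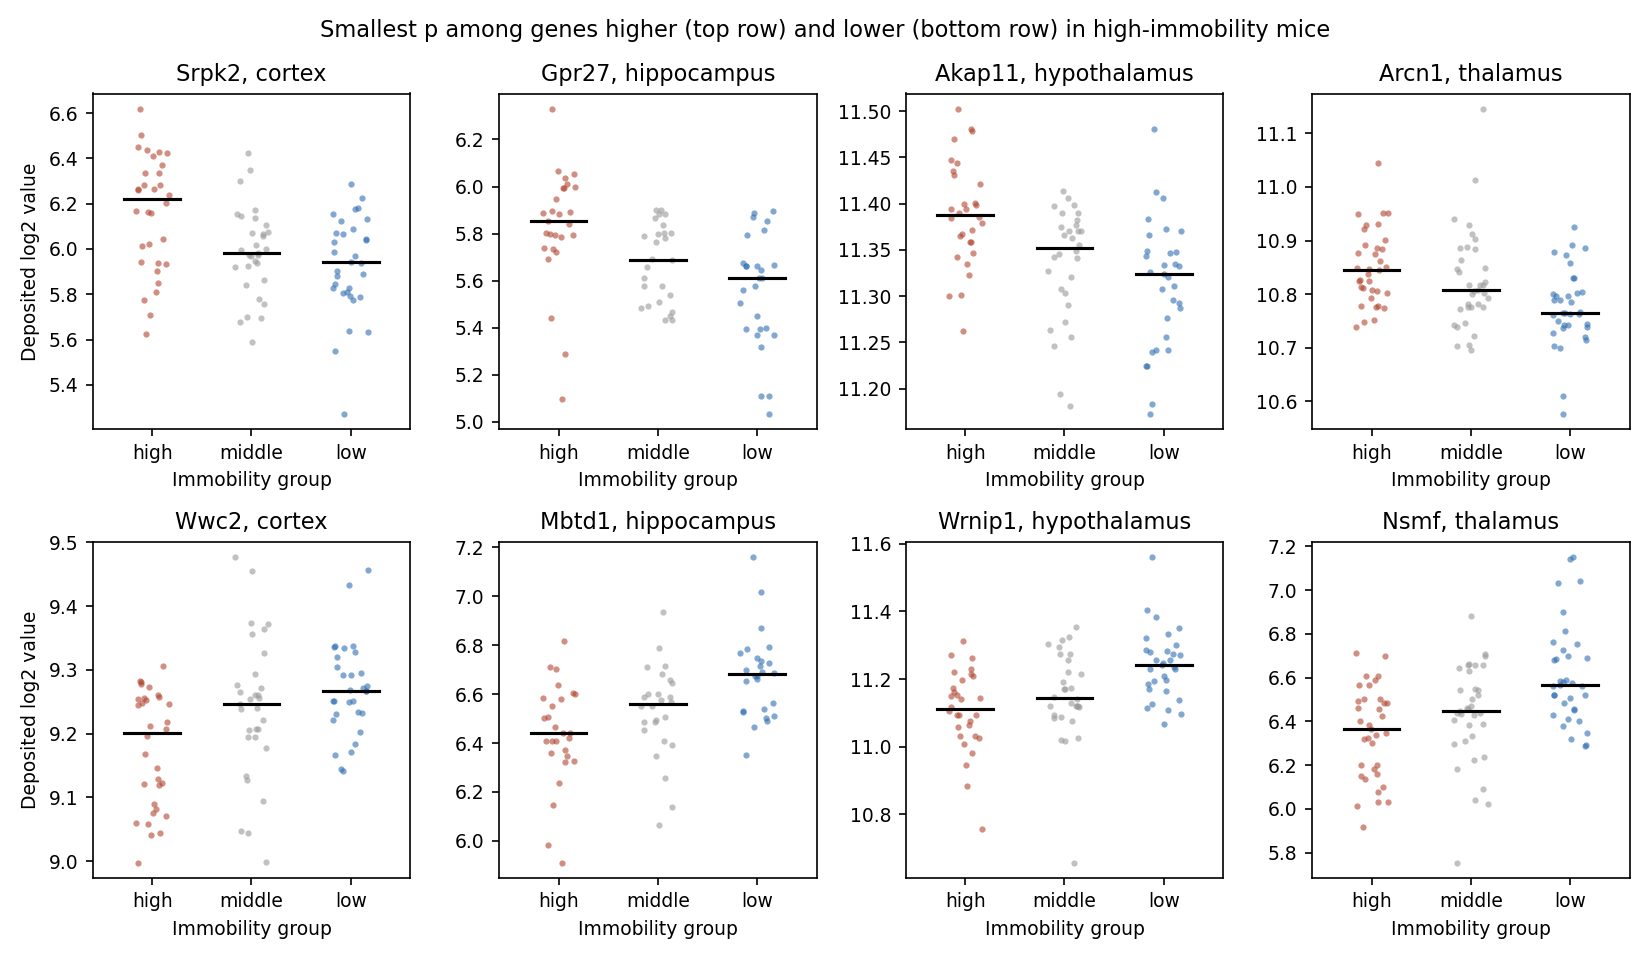
Each point is an array of 1 mouse, and the vertical axis is the deposited log2 value in that region, with the median of each group as a bar. The gene with the smallest p on the higher side (top) and on the lower side (bottom) is shown for each region. The high and low groups differ in median but overlap in every panel.

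All 4 regions then entered 1 fit, which tested the average of the 4 differences and did not require the same direction in each region. In a fit of 246 arrays from 76 mice, with the mouse as a random block, 60 of 45037 probe sets passed an adjusted p under 0.05 in limma, or 0.133%: 35 (0.0777%) were higher and 25 (0.0555%) lower in high-immobility mice. This count depends on how arrays of one mouse are treated. The block assumes 1 correlation for all probe sets, estimated at 0.04. The 60 probe sets had a median correlation between regions of 0.533 across the same mice, against 0.0369 over all probe sets, and 73.3% of them exceeded 0.3. Arrays of one mouse thus repeated each other for these probe sets far more than the fit allowed. With the regions averaged to 1 value per mouse, 0 probe sets passed (0%), the smallest adjusted p was 0.458 in limma, and 3063 (6.8%) had an unadjusted p under 0.05, of which 1172 were higher (2.6%) and 1891 lower (4.2%) in high-immobility mice. The 60 kept their direction in that setting, with unadjusted p between 1.77e-05 and 0.0215. They are therefore described as the smallest p-values of that fit, not as established differences. Of the 60, 56 had the same sign in each of the 4 regions. The exceptions were Clcn6, Bcl9l, Bex1 and 9530077C05Rik, each with 1 region on the other side of 0. That so many signs matched follows in part from choosing the probe sets on the average over regions.

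A pair of neighbouring potassium channel genes was among the named genes on the lower side. Kcnj9 encodes a subunit of the G protein-gated inwardly rectifying channels through which transmitters such as serotonin and GABA silence neurons, and Kcnj10 encodes the inwardly rectifying channel with which astrocytes clear potassium. In cortex Kcnj9 ran between 8.79 and 10.40 with a median of 9.80 in high-immobility mice, against 8.92 to 10.58 with a median of 10.07 in low-immobility mice, a difference of -0.37 (95% interval -0.57 to -0.16). In thalamus it ran between 8.45 and 10.36 with a median of 9.45 in high-immobility mice, against 8.94 to 10.43 with a median of 9.76 in low-immobility mice, a difference of -0.30 (95% interval -0.49 to -0.12). In hippocampus and hypothalamus the differences were -0.25 and -0.23. The groups overlapped in all 4 regions, and the low values of high-immobility mice reached further down. Over the 4 regions the difference was -0.27 with an adjusted p of 0.000802 (limma, mouse as block). With 1 mean per mouse it was -0.26 (95% interval -0.40 to -0.11), with an unadjusted p of 0.000979 and an adjusted p of 0.518.

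The Kcnj9 result rests mainly on 1 of 4 probe sets. The others differed by -0.13, -0.01 and 0.12 with 1 mean per mouse, so 1 of them lay on the other side. Within regions, 2 of these 3 lay in the same direction in cortex and in hippocampus, 1 in thalamus and 0 in hypothalamus. Kcnj10 has 1 probe set, which differed by -0.23 in cortex and -0.17 in thalamus, and by -0.13 in hypothalamus and -0.12 in hippocampus. With 1 mean per mouse its difference was -0.16 (95% interval -0.25 to -0.06, adjusted p = 0.518 in limma).

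Among the other genes on the lower side, Ubash3b, a tyrosine phosphatase of immune receptor signalling, differed by -0.10 over the regions. With 1 mean per mouse, 1 of its 2 other probe sets lay in the same direction. Also, 1 of the 2 had an unadjusted p of 0.00178 there (limma), and the direction of that probe set is not reported here. Timm8b, a chaperone of protein import into mitochondria, differed by -0.06, and by values between -0.07 and -0.05 in each region. Ints12 differed by -0.11 and Bola2, which takes part in the assembly of iron-sulfur clusters, by -0.09. Timm8b, Ints12 and Bola2 had low correlations between regions, at 0.05, 0.08 and 0.03, so for these the regions of a mouse did not simply repeat each other. With 1 mean per mouse the smallest p of all named genes was that of Faim, an inhibitor of apoptosis triggered by Fas, which differed by -0.07 (95% interval -0.10 to -0.04, unadjusted p = 1.77e-05, adjusted p = 0.458 in limma). Faim was lower in all 4 regions, by 0.04 to 0.10 on the log2 scale. Next to it in that setting stood Timm8b, 9530077C05Rik, Ets1, Fcho2 and Bola2. Ets1 is a transcription factor of lymphoid and endothelial cells, and Fcho2 a nucleator of endocytic pits. The 1 other Fcho2 probe set lay on the opposite side. On the higher side stood Polr2f, a subunit of RNA polymerases, at 0.10, although its other probe set lay on the opposite side at an unadjusted p of 0.0226 in limma. With it stood Rtn4ip1, a mitochondrial oxidoreductase, at 0.07, and Fam3b, a secreted factor first known from pancreatic islets, at 0.10.

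On the higher side of the 4-region fit, 14 of the 35 probe sets have no single gene symbol, and 8 of these had a smaller p than any named gene. The first 4 differed by 0.09 to 0.17, with adjusted p between 0.000157 and 0.000802 (limma, mouse as block) and correlations between regions of 0.590 to 0.747. With 1 mean per mouse their adjusted p lay between 0.492 and 0.518. Among probe sets with a symbol, Ackr1, an atypical chemokine receptor of blood vessels, had the smallest p. It differed by 0.10, and by 0.14 in both hypothalamus and thalamus, 0.10 in cortex and 0.04 in hippocampus. Sc5d, an enzyme of cholesterol synthesis, differed by 0.16 by one probe set but by -0.09 by another that also passed the threshold, so the gene as a whole has no single direction. Dcaf8, a substrate receptor of a ubiquitin ligase, differed by 0.14, Nxpe4 by 0.26 and 9630050P21Rik by 0.13. Ccdc153, a coiled-coil protein of motile cilia, differed by 0.31, with 0.48 in hippocampus and 0.14 in cortex.

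**Figure D3:**
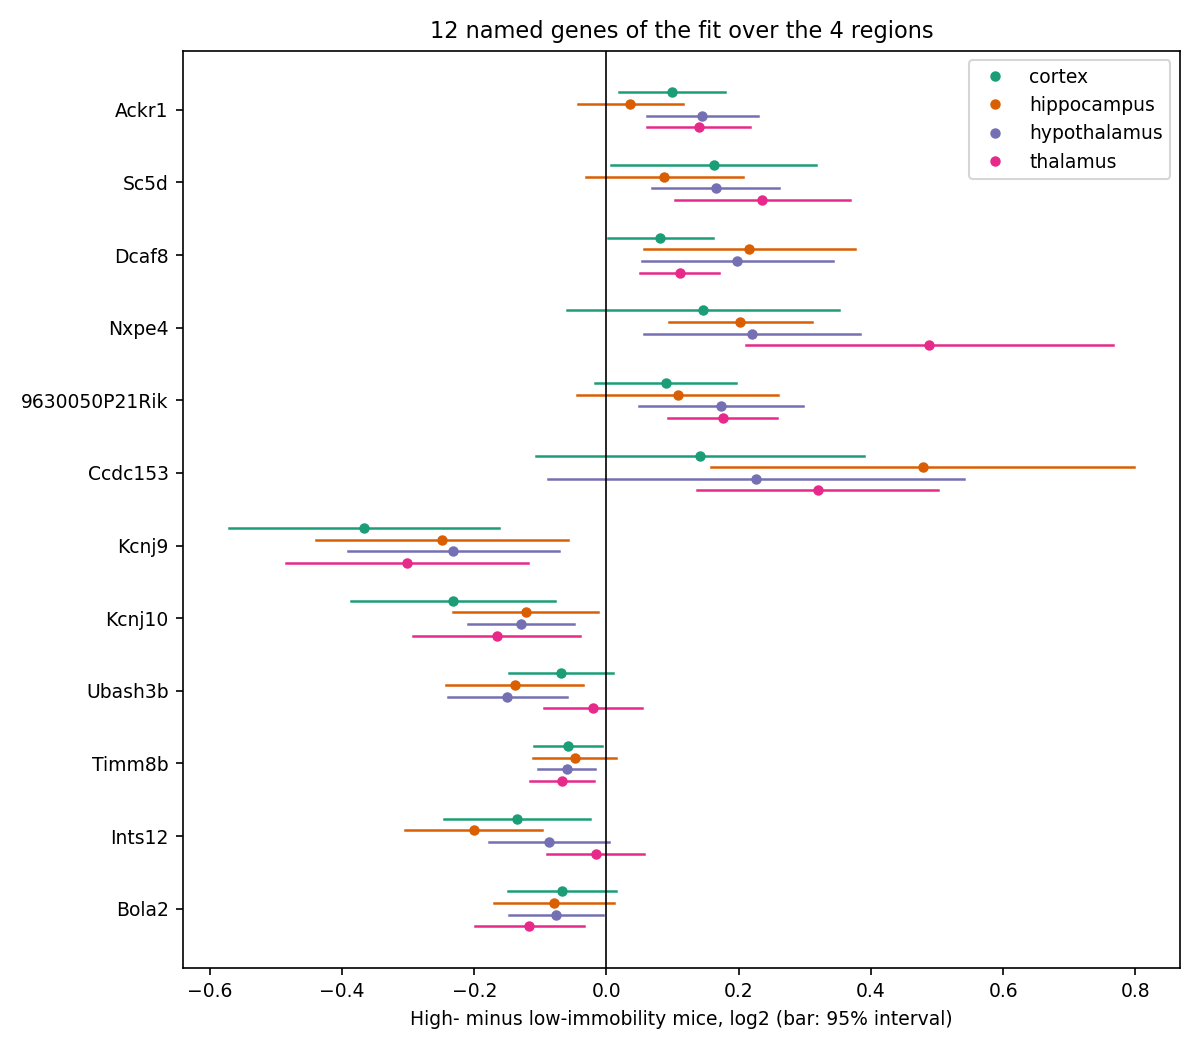
Points are differences of high-immobility minus low-immobility mice on the log2 scale within each region, with 95% intervals as bars, for the 6 genes on the higher side and the 6 on the lower side of the 4-region fit. Each of the 12 genes keeps its sign in all 4 regions, and the intervals of Kcnj9 and Kcnj10 stay below 0 throughout.

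**Figure D4:**
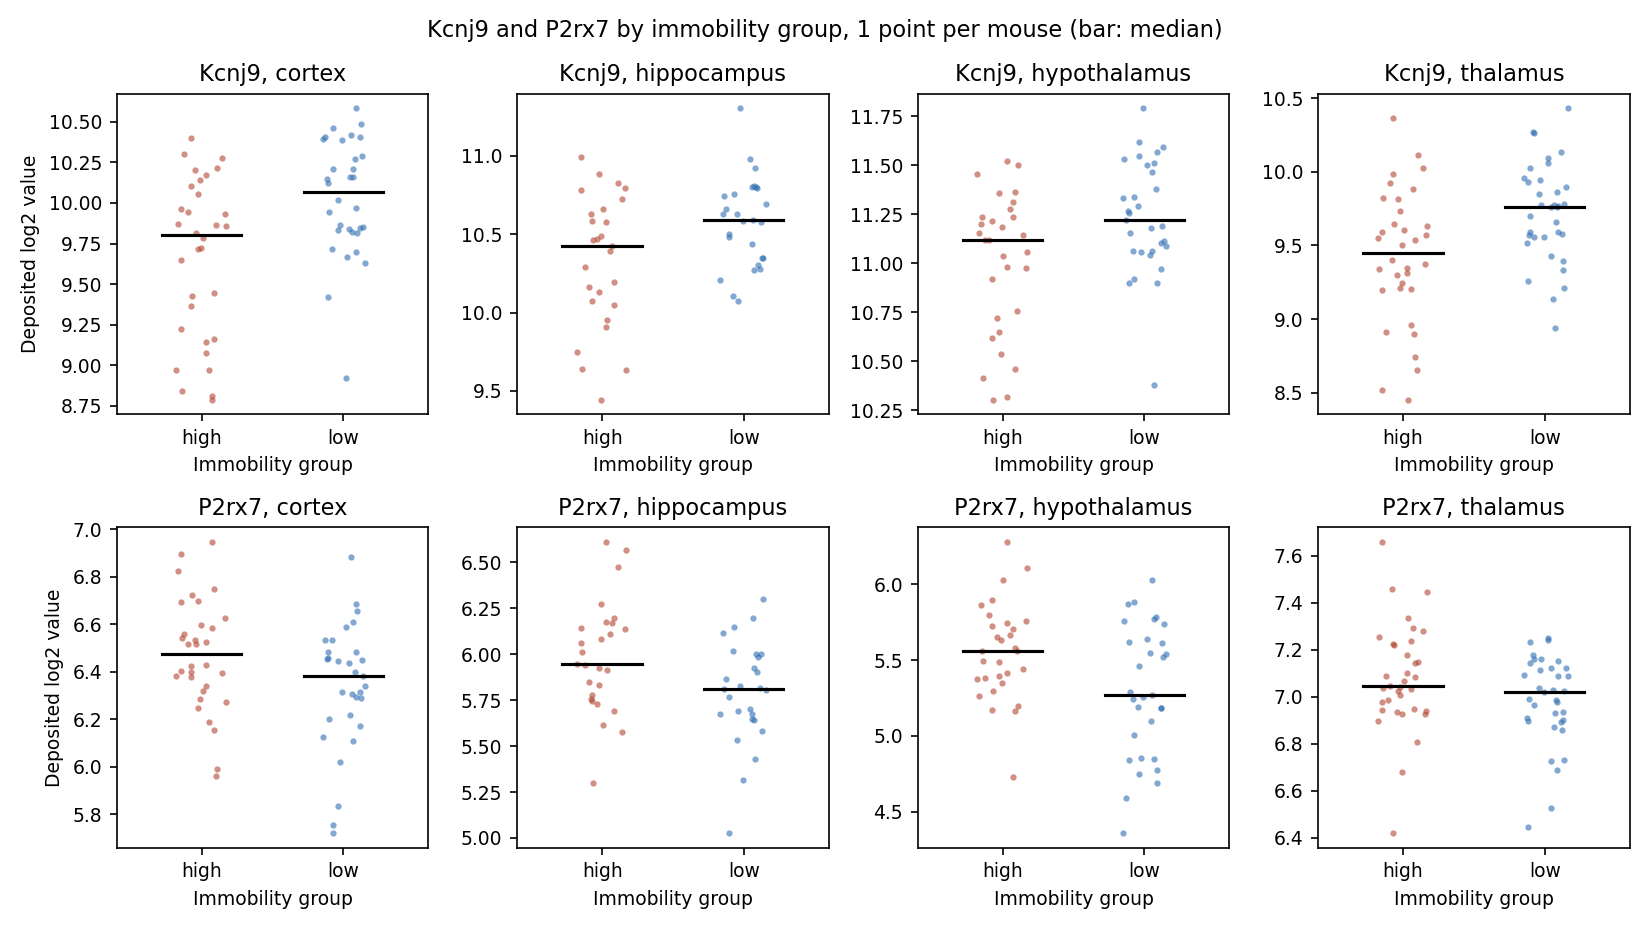
Each point is an array of 1 mouse, with the deposited log2 value of Kcnj9 (top) and P2rx7 (bottom) in each region and the median of each group as a bar. By the 1 probe set shown per gene, Kcnj9 is lower and P2rx7 higher in the median of high-immobility mice in each region. The groups overlap in every panel.

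The genes of the 4-region fit lay mostly on 3 chromosomes. Of the 42 named genes with a chromosome in the GRCm38.p6 gene table, 16 lay on chromosome 9 (38.1%), 7 on chromosome 5 (16.7%) and 6 on chromosome 1 (14.3%). Of all measured genes, 5.56% lie on chromosome 9, 6.22% on chromosome 5 and 5.86% on chromosome 1. On chromosome 9, 11 of them formed 1 run in gene order, Ubash3b first and Timm8b last, with at most 24 other protein-coding genes between neighbours. The run holds Sc5d, Ccdc153, Vps11, Bcl9l, Ift46, Tmem25, Fxyd2, Bace1 and Nxpe4. Bace1, the beta-secretase that cuts amyloid precursor protein, differed by 0.25 by one probe set, while its 3 others differed by 0.08, 0.02 and -0.01. On chromosome 1 all 6 genes formed 1 run: Cd84, Pex19, Dcaf8, Kcnj9, Kcnj10 and Ackr1. Kcnj9 and Kcnj10 have no protein-coding gene between them in that table. Genes that neighbour each other on a chromosome are inherited together in an F2 cross, so they are not independent observations. Their directions were mixed within each run. With 1 mean per mouse, 9 of the 67 genes at an unadjusted p under 0.001 lay on chromosome 9 (13.4%), 6 on chromosome 5 (8.96%) and 5 on chromosome 1 (7.46%). Within regions, chromosome 9 held 18.1% of such genes in thalamus (13 of 72), 9.40% in hypothalamus (11 of 117), 6.67% in hippocampus (2 of 30) and 5.13% in cortex (2 of 39). Chromosome 1 held 15.4% in cortex (6), 9.72% in thalamus (7), 5.13% in hypothalamus (6) and 3.33% in hippocampus (1). Chromosome 5 held 10.0% in hippocampus (3), 7.69% in cortex (3), 6.94% in thalamus (5) and 6.84% in hypothalamus (8). The run limit of 30 genes was chosen after the positions were seen.

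**Figure D5:**
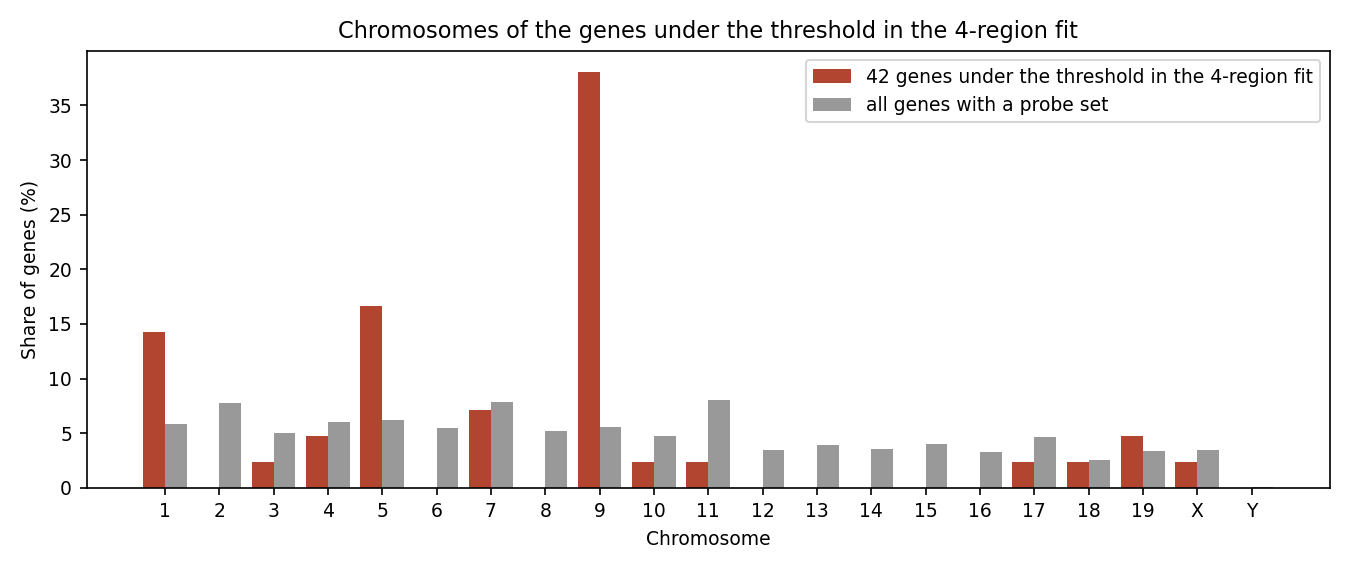
Bars give the share of genes on each chromosome, in percent, for the 42 genes under the threshold in the 4-region fit beside all genes with a probe set. Chromosome 9 holds 38.1% of these genes against 5.56% of all genes.

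Whether the difference between the groups itself depended on the region was tested with an interaction term in the same fit. It passed for 1 of 45037 probe sets (0.00222%), and 5.78% had an unadjusted p under 0.05. The probe set, 1421238_a_at, has no gene symbol in the annotation used here. In hippocampus it ran between 3.13 and 4.25 with a median of 3.90 in high-immobility mice, against 2.66 to 4.38 with a median of 3.35 in low-immobility mice, a difference of 0.40 (95% interval 0.21 to 0.58). In thalamus it lay the other way, with a median of 6.01 in high-immobility mice and 6.21 in low-immobility mice, a difference of -0.21 (95% interval -0.35 to -0.08). In hypothalamus the difference was 0.14 and in cortex -0.03. The adjusted p of the interaction was 0.00033 in limma. Genes that led in one region, such as Nsmf in thalamus or Wrnip1 in hypothalamus, did not pass this test, so their differences are not shown to be particular to that region.

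Genes of systems on which antidepressants act, or that earlier work tied to behaviour in this test, were counted next, with 1 probe set per gene. Over 15 lists of pathways, 205 list entries were measured in each region, and 0 passed the adjusted threshold (limma). A gene in more than 1 list, such as P2rx7 or Tph2, was counted once per list. In the shares of all genes each gene was counted once. At an unadjusted p under 0.05, 10 entries were higher and 13 lower in hypothalamus (4.88% and 6.34%), against 3.03% and 5.51% of all 18193 genes. In thalamus 4 were higher and 6 lower (1.95% and 2.93%), against 3.18% and 3.28% of all genes. In hippocampus 4 were higher and 8 lower (1.95% and 3.90%), against 2.17% and 3.16%. In cortex 7 were higher and 6 lower (3.41% and 2.93%), against 2.02% and 3.16%.

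Among 12 measured candidate genes of tail suspension behaviour, P2rx7 had the smallest p with 1 mean per mouse. The list was chosen with earlier results of these data known, so this rank is no independent evidence for the gene. The gene encodes an ATP-gated cation channel, mainly of microglia, whose loss in mice lowers immobility in behavioural despair tests. P2rx7 ran between 4.73 and 6.28 with a median of 5.56 in high-immobility mice in hypothalamus, against 4.36 to 6.03 with a median of 5.27 in low-immobility mice, a difference of 0.26 (95% interval 0.07 to 0.45). It differed by 0.19 in hippocampus, 0.13 in cortex and 0.09 in thalamus, and the interval of thalamus included 0. The groups overlapped in each region. P2rx7 was among the 60 probe sets of the 4-region fit, at 0.17 and an adjusted p of 0.0348 (limma, mouse as block). With 1 mean per mouse the difference was 0.17 with an unadjusted p of 0.00117 and an adjusted p of 0.518. Its 2 other probe sets differed by 0.03 and 0.01. Of the other candidates, Tph2, the serotonin-synthesising enzyme of neurons, differed by -0.29 in hippocampus and -0.18 in hypothalamus, both at an unadjusted p under 0.05. Gabra2, a GABA-A receptor subunit, differed by -0.26 in hypothalamus with an interval of -0.52 to 0.00.

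Of 10 genes of monoamine synthesis and transport, Th and Slc6a3 were higher in thalamus, by 0.10 and 0.12. Th is the rate-limiting enzyme of catecholamine synthesis, and Slc6a3 the dopamine transporter. At an unadjusted p under 0.05, 2 of the 10 were higher there, against 3.18% of all genes. The list's median there was 0.06 and its lowest value -0.01. Of 12 serotonin receptors, Htr2c had a median of 11.93 in high-immobility mice in hypothalamus and 12.06 in low-immobility mice, a difference of -0.11 (95% interval -0.18 to -0.05, adjusted p = 0.317 in limma). Htr3a, the ion channel among these receptors, differed by 0.16 in thalamus and Htr5b by -0.18 in cortex. The receptors went both ways, from -0.11 to 0.09 in hypothalamus, -0.11 to 0.16 in thalamus and -0.18 to 0.10 in cortex. Of 6 measured receptors for dopamine and noradrenaline, Drd4 differed by -0.24 in thalamus and Drd2 by -0.16 in hypothalamus. The list's median was -0.03 in thalamus and 0.02 in hypothalamus, and its highest values were 0.03 and 0.09. Among 19 genes of opioid, cannabinoid and neuropeptide signalling, Npy1r, a receptor for neuropeptide Y, differed by 0.14 in hypothalamus. Mgll, which degrades an endocannabinoid, differed by 0.09 in cortex, and Gal, which encodes galanin, by -0.36 in hippocampus. These genes also went both ways, from -0.08 to 0.20 in hypothalamus, -0.10 to 0.09 in cortex and -0.36 to 0.29 in hippocampus.

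Of 15 genes of the stress axis, 1 was higher in hypothalamus and 1 in hippocampus at an unadjusted p under 0.05. These were Nr3c1, the glucocorticoid receptor, at 0.07, and Crhbp, the binding protein of corticotropin-releasing hormone, at 0.19. Of all genes, 3.03% were higher in hypothalamus and 2.17% in hippocampus. With each gene's probe set picked by its mean over all 4 regions instead, 0 of the 15 were higher in hypothalamus at that threshold. The median difference of the list lay between -0.02 and 0.01 in the 4 regions. Among 14 genes of the neurotrophin and antidepressant response, Ntrk2, the receptor for BDNF, differed by -0.06 in hypothalamus, where 1 of its 7 other probe sets lay in the same direction, and Homer1, a postsynaptic scaffold, by -0.06 in cortex.

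For fast transmission, Grik1, a kainate receptor subunit, had the smallest p of all list members. It ran between 7.86 and 9.02 with a median of 8.53 in high-immobility mice in hypothalamus, against 8.33 to 9.02 with a median of 8.69 in low-immobility mice, a difference of -0.20 (95% interval -0.31 to -0.10, adjusted p = 0.274 in limma). The lowest values belonged to high-immobility mice. Grin3a, an NMDA receptor subunit, differed by 0.07 there and Grik5 by 0.08 in cortex. The list's median was -0.00 in hypothalamus and 0.00 in cortex. Of 10 GABA-A receptor subunits, Gabra5 differed by 0.09 in hypothalamus and Gabra4 by -0.07 in cortex. The subunits ran from -0.26 to 0.09 in hypothalamus and from -0.13 to 0.02 in cortex. None of 6 metabotropic glutamate receptors had an unadjusted p under 0.05 in a region, with the smallest, 0.0799, for Grm4 in hypothalamus.

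Immediate early genes, whose transcripts follow recent neuronal activity, had a median difference below 0 in each region, between -0.05 and -0.04. The median over all 18193 genes lay between -0.00567 and -8.76e-05. Of 16 members, Fos differed by -0.27 in hippocampus, Jun by -0.06 in hypothalamus and Egr4 by -0.18 in thalamus at an unadjusted p under 0.05. Each was the 1 member lower at that threshold in its region, where 3.16%, 5.51% and 3.28% of all genes were lower. In cortex 0 were lower, and 0 were higher in any region. With 1 mean per mouse 0 members passed that threshold, and the smallest unadjusted p was 0.116, for Npas4 (limma). Of 16 core clock genes, 1 was higher and 1 lower at an unadjusted p under 0.05 in cortex, and the same held in hypothalamus. In hippocampus 0 were higher and 3 lower, and in thalamus 0 and 1. Of all genes, between 2.02% and 3.18% were higher and between 3.16% and 5.51% lower in a region. The list's median difference lay between -0.05 in hippocampus and 0.03 in hypothalamus, where Bhlhe40, on the higher side, had the smallest p. Dbp, an output gene of the clock, differed by -0.13 in hippocampus and -0.06 in hypothalamus. Nr1d2, a repressor of the clock, differed by -0.06 in cortex, -0.06 in hippocampus and -0.05 in thalamus. Among 28 subunits of mitochondrial complex I, 4 in hypothalamus, 3 in thalamus, 1 in cortex and 0 in hippocampus were lower at an unadjusted p under 0.05, and 0 were higher at that threshold. Of all genes, 5.51% were lower in hypothalamus and 3.28% in thalamus. The list's median difference lay between -0.02 and -0.00 in the 4 regions, and some subunits lay above 0 in each, by up to 0.03 in cortex. Ndufa5 and Ndufb2 differed by -0.07 and -0.09 in hypothalamus, and Ndufb8 by -0.05 in thalamus. Of 12 chaperones, Hspa1a, the inducible heat shock protein, differed by -0.24 in hypothalamus, where its median was 9.95 in high-immobility mice and 10.20 in low-immobility mice, and Pdia6 by 0.10. Of 15 cytokine and interferon genes, Il6ra differed by 0.25 in hypothalamus and Usp18 by -0.27 in hippocampus. With probe sets picked by their mean over all 4 regions, 0 of the 15 were higher in hypothalamus at an unadjusted p under 0.05.

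Markers of cell types and neighbouring tissues were counted in the same way, over 17 lists with 125 entries. None passed the adjusted threshold (limma). At an unadjusted p under 0.05, 7 were higher and 4 lower in thalamus (5.6% and 3.2%), where the shares of all genes were 3.18% and 3.28%. In hypothalamus 6 were higher and 4 lower (4.8% and 3.2%), where they were 3.03% and 5.51% of all genes. In cortex 4 were higher and 3 lower (3.2% and 2.4%), against 2.02% and 3.16% of all genes, and in hippocampus 3 and 1 (2.4% and 0.8%), against 2.17% and 3.16%. In thalamus, Mobp, a myelin protein, ran between 13.49 and 13.81 with a median of 13.65 in high-immobility mice, against 13.37 to 13.75 with a median of 13.59 in low-immobility mice, a difference of 0.07 (95% interval 0.03 to 0.11). All 4 of its other probe sets lay in the same direction. Mag, another myelin gene, differed by 0.10 but Mog by -0.09. Also in thalamus, the hypothalamic markers Otp and Oxt differed by 0.20 and 0.33, the habenular marker Chrnb4 by -0.26, the thalamic marker Shox2 by -0.11 and Otx2, a marker of choroid plexus, by -0.13. The median difference of 9 hypothalamic markers was 0.14 in thalamus, and the markers ran from -0.17 to 0.45. The median of 6 habenular markers was -0.08, with a range of -0.26 to 0.00. For 8 choroid plexus markers the median was -0.10 and the range -0.45 to 0.09. Among 8 thalamic markers they were -0.04 and -0.11 to 0.01. Some markers of adjoining tissue thus had an unadjusted p under 0.05 in thalamus, and their part in the thalamic differences beyond the habenular term was not tested.

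In hypothalamus Gad1 and Slc32a1, 2 of 7 genes of GABA-releasing neurons, differed by -0.06 and -0.09, and the list's median was -0.05. For other cell types 1 marker each had an unadjusted p under 0.05 there, in lists whose members went both ways. Gfap, a filament of reactive astrocytes, differed by 0.23, while the median of 10 astrocyte markers was 0.00 and the lowest was -0.09. Pecam1, of endothelium, differed by 0.13, while the median of 9 markers was -0.01 and the lowest was -0.06. Csf1r, of microglia, differed by 0.05, while the median of 8 markers was 0.02 and the lowest was -0.04. In cortex C1qa, a complement gene of microglia, differed by 0.11 with a median of 9.55 in high-immobility mice and 9.42 in low-immobility mice. The median of 8 microglial markers there was 0.03 and the lowest was -0.01. Cux2, of upper-layer neurons, differed by 0.12 in cortex, while the median of 7 cortex markers was 0.03 and the lowest was -0.03. Stmn2, a neuronal gene, differed by -0.05 in cortex, while the median of 10 neuronal markers was -0.01 and the highest was 0.04. In hippocampus Stmn2 differed by -0.08, while the median of these markers was 0.00 and the highest was 0.08. Pdgfra, which marks oligodendrocyte precursors, differed by 0.09 in hippocampus and 0.06 in hypothalamus. The lowest of 5 such markers was -0.04 in hippocampus and -0.07 in hypothalamus. The blood genes Hba-a1 and Alas2 had unadjusted p of at least 0.147 in each region.

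The remaining 277 traits of the same mice were compared between the groups over all mice, to see whether other behaviour or sleep went with immobility. By a two-sided permutation test of the mean difference with 100000 resamples, 0 of 277 passed a Benjamini-Hochberg adjusted p under 0.05 (0%), and 14 had an unadjusted p under 0.05 (5.05%). The smallest adjusted p was 0.826. The leading trait was the number of REM sleep bouts in the first 6 h after restraint, as a ratio to baseline. It averaged 0.914 ± 0.245 in high-immobility mice (SD, n = 24) and 0.733 ± 0.216 in low-immobility mice (n = 26), a difference of 0.181 (95% interval 0.0499 to 0.312, unadjusted permutation p = 0.00719). High-immobility mice ran between 0.511 and 1.56 and low-immobility mice between 0.110 and 1.13, so the groups overlapped widely. With the upper and lower 0.25 of mice the difference was 0.113 (unadjusted permutation p = 0.0846). With deviations within cohorts it was 0.180 (unadjusted permutation p = 0.00744). REM sleep as a share of total sleep in the same hours, also as a ratio to baseline, averaged 1.02 ± 0.156 in high-immobility mice and 0.884 ± 0.218 in low-immobility mice. Of 66 traits of sleep after restraint, 6 had an unadjusted p under 0.05, against 3 of 70 after sleep deprivation and 0 of 99 at baseline. Many of these traits are measures of the same recording and are not independent.

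In the forced swim test, which also scores immobility, 0 of 11 traits had an unadjusted p under 0.05, and the smallest was 0.0598. The same held for 7 traits of the elevated plus maze, with a smallest p of 0.0564, and 3 of the open field, with 0.164. Of 21 fear conditioning traits, 5 had an unadjusted p under 0.05. Freezing to the context relative to baseline averaged -0.163 ± 0.828 on its deposited scale in high-immobility mice (SD, n = 34) and 0.380 ± 1.19 in low-immobility mice (n = 29), a difference of -0.543 (95% interval -1.05 to -0.0328, unadjusted permutation p = 0.0375, adjusted p = 0.826).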

How the data were processed

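The deposited values are log2 expression, which per the submitters' processing notes came from the tools affy and RMA, of unstated version. Probe sets were named from the platform annotation: 34945 of 45037 had 1 gene symbol, which gave 18193 genes. The deposited traits are of other units, 1 scale per trait. Cohort and hybridization date explained little of the deposited values (cohort a median of 1.46% of the variance in cortex, against 8.25% for random groups of that number), and cohort 2.03% of the trait, against 7.08%. If the values were adjusted for both before deposit, which no label states, p-values can be somewhat too small.

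The groups were compared per region with limma 3.58.1 in R 4.3.3 (lmFit, eBayes with trend). Missing values (0.211%) were left missing, and the threshold was 0.05 after Benjamini-Hochberg adjustment. The fit over regions used region terms, effects per region and the mouse as a random block (duplicateCorrelation). It used groups cut over all mice, while values given for a region use that region's groups. Where regions were averaged to 1 mean per mouse, the region means were removed first. Other traits were tested by permutation. Named genes are the 6 with the smallest p in each direction, and up to 3 per list. Each list gene is represented by its brightest probe set over the regions on the usual scale, cortex and thalamus. Members and lists were chosen with earlier results of these data known. The limma script was tested on simulated data.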

Additional observations from a re-analysis of the deposited data

Results flagged for a closer look

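Probe set 1421238_a_at, which carries no gene symbol here, stood apart because its difference between high- and low-immobility mice was not the same in the 4 regions by a test of the interaction itself (limma, adjusted p = 0.00033). The difference was 0.40 in hippocampus, 0.14 in hypothalamus, -0.03 in cortex and -0.21 in thalamus. It no longer passed with probe sets standardised within the region or with the upper and lower 0.25 of mice, and it passed with the RNA integrity number as a term.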

How the results depend on the processing

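Within regions, 13 alternatives were run for each region: the upper and lower 0.25 of mice, the trait as a continuous term, groups cut over all mice, terms for RNA integrity, cohort, hybridization date, neighbouring-tissue markers and the first 5 principal components, arrays of RIN under 7 left out, the dimmest 0.333 of probe sets left out, quantile normalisation, no trend, and robust regression. In the fit with striatal markers, 1 cortex array lacked the marker values and was left out. Of these 52 fits, 50 called 0 probe sets. Robust regression called 1 in hippocampus (1421238_a_at) and 19 in hypothalamus, among them Rnaseh2c, Wrnip1, Ciz1, Rexo4, Zfp410 and Akap11, and the cause was not tested. The adjusted p of Rnaseh2c ran between 0.00624 and 0.390 over its alternatives. Over the 4 regions, the count of 60 became 176 with no replicate block, 0 with 1 mean per mouse, 35 with probe sets standardised within the region, 162 with the upper and lower 0.25 and 129 with the continuous trait, of which 30 were among the 60. It was 61 with RNA integrity as a term. The interaction passed for 0 probe sets with standardised values, 0 with the upper and lower 0.25 and 10 with the continuous trait. Other traits stayed at 0 in 3 alternatives. No paired analysis was possible within a region because the groups hold different mice. Of the named genes, Grm2 in hippocampus reversed with the upper and lower 0.25 (0.0119) and Alas2 in hypothalamus with the continuous trait (0.0264). The other alternatives kept their direction.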
